A study of Arabidopsis thaliana with 12 samples.

Results

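Transcript levels of 8 Arabidopsis thaliana genes that build endoplasmic reticulum (ER) bodies or belong to the PYK10 myrosinase system were followed in aerial tissue of plants carrying effector candidates from Melampsora larici-populina, a rust fungus of poplar. The genes were taken by locus identifier from the 32833 loci counted, all 8 were present, and all 8 passed the filter on low counts. They are PYK10 (AT3G09260), BGLU18 (AT1G52400), BGLU21 (AT1G66270), BGLU22 (AT1G66280), NAI1 (AT2G22770), NAI2 (AT3G15950), PBP1 (AT3G16420) and MEB1 (AT4G27860). Stable transgenic Col-0 plants expressed the effector candidate Mlp37347 fused to green fluorescent protein (GFP), the candidate Mlp124499 fused to GFP, or GFP with no effector (Control), and all 3 lines also carried BAR, a herbicide resistance marker. Each line had 4 libraries, made from pooled above-ground tissue of plants grown in soil and harvested 15 days after germination, and the plants were not infected with the fungus as far as the labels say. The sources used here do not give the promoter of the transgenes, the number of independent insertion lines, or whether the 4 libraries came from different plantings, so each line stands for whatever insertions it carries, and p-values measure only the spread between these libraries. Transgene transcripts were not analysed here.

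ER bodies are spindle-shaped compartments that bud from the ER in Arabidopsis and its relatives. They are abundant in roots and in the epidermis of young seedlings, and wounding or jasmonate can bring them out in mature rosette leaves. They hold beta-glucosidases that can act as myrosinases, enzymes that cut glucosinolates, the mustard oil precursors, or related glucosides into defence compounds once tissue is broken and enzyme and substrate meet. NAI1 is a transcription factor of the basic helix-loop-helix type that is needed for constitutive ER bodies, NAI2 is an ER body protein needed for their formation, and MEB1 is a protein of the ER body membrane. PYK10 (also BGLU23) is the main beta-glucosidase of root ER bodies, BGLU21 and BGLU22 are its close relatives there, and BGLU18 is the enzyme of the leaf ER bodies that appear after wounding. PBP1 is a jacalin-type lectin of the cytosol that joins PYK10 in large complexes after cells are broken.

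The last 30 bases of coding sequence are shown for the 4 beta-glucosidases because this end encodes the ER retention signal that keeps the enzymes in the ER and its bodies. The capitals mark the last 4 codons before the stop codon, read on the coding strand from the RefSeq TAIR10.1 genome.
PYK10: ccatccgcgctcaagAAGGATGAGCTTtaa
BGLU18: ccaacctccaagctgAGGGAAGAACTCtag
BGLU21: ccatccgcactcaagAGGGATGAGCTTtaa
BGLU22: ccatccgcgctcaagAAGGATGAGCTTtaa
The stretches lie at chr3:2840657-2840686 (minus strand), chr1:19517901-19517930 (plus strand), chr1:24700110-24700139 (minus strand) and chr1:24706759-24706788 (minus strand), in that order of genes. The 30 bases of PYK10 and BGLU22 were the same, and BGLU18 ended in different codons. Over the whole coding sequence, aligned bases were 93.3% identical between BGLU21 and BGLU22, 84.0% between PYK10 and BGLU21, 83.7% between PYK10 and BGLU22, and 70.0% to 70.7% between BGLU18 and the other 3. No window of 100 bases was shared exactly between any pair of the 4 transcripts, while reads were 100 nt long. The sources used here do not tell how multiply aligned reads were treated, so counts could have been split between BGLU21 and BGLU22.

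The genes lay on 4 chromosomes of TAIR10.1, the annotation used here for positions because the deposited counts carry none and refer to TAIR10. BGLU21 (chr1:24699868-24703166) and BGLU22 (chr1:24706512-24709996) were neighbours on the minus strand of chromosome 1, and BGLU18 (chr1:19514989-19518411) lay apart from them. PYK10 (chr3:2840477-2843781), NAI2 (chr3:5397541-5402653) and PBP1 (chr3:5579290-5581032) were on chromosome 3, NAI1 (chr2:9684562-9686613) on chromosome 2 and MEB1 (chr4:13873708-13876528) on chromosome 4. All 4 beta-glucosidase genes had 13 exons in their longest model. PYK10 shared 138 bp with the antisense protein-coding locus AT3G09250 and MEB1 shared 200 bp with an antisense non-coding locus, AT4G27852. Use of strand in the counting is not stated in them either, so reads in these overlaps are uncertain in origin.

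Promoter windows of 300 bases, from 250 bases before to 50 bases after the annotated start, were searched on both strands for CACGTG, the G-box that many basic helix-loop-helix proteins bind, and for the wider E-box, CANNTG, which includes every G-box. The G-box was in 7.68% and the E-box in 61.7% of 27443 protein-coding promoters. Among the 8 genes, BGLU18 and NAI2 held 1 G-box each. NAI1 held 2 E-boxes, MEB1 held 1, BGLU18 held 2 with its G-box counted, and PYK10, BGLU21, BGLU22 and PBP1 held none in this window. The windows of NAI2 and PYK10, the genes with the highest fitted fold changes of the 8 in Mlp37347 against Control, are shown 5′ to 3′ on the strand of the gene, with the G-box in capitals.
NAI2: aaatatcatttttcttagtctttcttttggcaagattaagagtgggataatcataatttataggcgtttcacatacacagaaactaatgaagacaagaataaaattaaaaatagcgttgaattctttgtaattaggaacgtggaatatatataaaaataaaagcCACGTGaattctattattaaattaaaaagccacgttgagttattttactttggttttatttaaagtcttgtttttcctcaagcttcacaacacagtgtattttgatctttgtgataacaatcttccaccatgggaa
PYK10: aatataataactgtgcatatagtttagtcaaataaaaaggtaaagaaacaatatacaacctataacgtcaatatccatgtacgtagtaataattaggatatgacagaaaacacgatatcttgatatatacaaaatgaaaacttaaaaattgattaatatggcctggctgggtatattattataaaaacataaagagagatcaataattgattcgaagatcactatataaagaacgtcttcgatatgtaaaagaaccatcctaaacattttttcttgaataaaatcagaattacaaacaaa
They lie at chr3:5402604-5402903 and chr3:2843732-2844031 of TAIR10.1, both on the minus strand.

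Total counts were 12368262 to 24483245 in Mlp37347, 10813288 to 14733894 in Mlp124499 and 6645703 to 37378917 in Control. Library 4 of both effector lines stood apart from the others of its line. The chi-square per degree of freedom was 2.82 to 6.27 between Mlp37347 1, 2 and 3 but 154 to 208 between them and Mlp37347 4, and 85.0 to 132 between Mlp124499 4 and the others of its line. Mlp124499 3 lay at 40.6 to 132 from the others of its line, and Control 1 at 56.5 to 106 from the other Control libraries, which lay at 8.74 to 39.6 from each other. For alignment, a mate inner distance of 110 to 115 bp had been set for Mlp37347 1, 2 and 3, while the other 9 libraries had 50 to 84 bp, Mlp37347 4 among them with 70 bp. Control 1 was the shallowest library, and 57.6% of its reads aligned, against 88.0% to 95.5% elsewhere. Leaf markers were high throughout: the summed level of 6 mesophyll genes was 60025 to 78383 counts per 1000000 of a library (CPM) in Mlp37347, 49792 to 61167 CPM in Mlp124499 and 27895 to 52982 CPM in Control. All libraries of Mlp37347 were above all of Control on that sum, most of which was CAB1 and RBCS1A. The single genes did not move together. In Mlp37347 against Control, log2 fold changes ran from 1.01 for CAB1 and 0.70 for PSBO1 to -0.04 for RCA and -0.12 for GLDP1. In Mlp124499 against Control, CAB1 gave 1.04, while RCA, CA1 and GLDP1 gave -0.67, -0.84 and -0.65. EdgeR called none of the 6 genes in these comparisons. The part of this sum in the results below was not tested.

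PYK10 was the 1 gene of the 8 past the threshold in edgeR, and it was higher in Mlp37347 than in Control. Its level, in CPM scaled by TMM (trimmed mean of M values), was 356, 423, 424 and 291 CPM in Mlp37347 1 to 4, 225, 299, 192 and 375 CPM in Mlp124499 1 to 4, and 105, 203, 200 and 215 CPM in Control 1 to 4. Every Mlp37347 library was above every Control library, while Mlp124499 overlapped with both other lines. The means were 374 ± 63.6, 273 ± 81.6 and 181 ± 50.6 CPM in Mlp37347, Mlp124499 and Control (SD, n = 4 each). PYK10 rose 2.07-fold in Mlp37347 against Control, a log2 fold change of 1.05 ± 0.27 (SE, 95% interval 0.46 to 1.64), with an adjusted p of 0.0326 from edgeR's quasi-likelihood test over 19090 genes. In Mlp124499 against Control the log2 fold change was 0.59 ± 0.27 (95% interval 0.01 to 1.18), with an unadjusted p of 0.0481 and an adjusted p of 0.305. Mlp37347 against Mlp124499 gave 0.45 ± 0.27 (95% interval -0.13 to 1.04, adjusted p = 0.420), so edgeR did not show these lines to differ from each other. Limma voom with sample weights called PYK10 higher there (0.56, adjusted p = 0.00138), along with 27.3% of all genes. It also called PYK10 higher in Mlp124499 against Control (0.42, adjusted p = 0.0293), along with 16.1% of all genes. DESeq2 called PYK10 in neither of these comparisons. In tissue samples of this kind, more cells that express a gene and more RNA per cell cannot be told apart.

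The PYK10 call was close to the threshold. It was lost without Control 1 (0.86, adjusted p = 0.0624), Control 2 (1.11, adjusted p = 0.0707) or Control 3 (1.10, adjusted p = 0.0753), and without Mlp37347 1 (1.11, adjusted p = 0.0676), Mlp37347 2 (1.03, adjusted p = 0.0829) or Mlp37347 3 (1.02, adjusted p = 0.0816). It held without Mlp37347 4, at 1.19 with an adjusted p of 0.00983. Without Mlp37347 4 and Mlp124499 4 together it was 1.19 (adjusted p = 0.00338), with 3177 of 19232 genes called higher. On all 12 libraries, DESeq2 (1.07, adjusted p = 0.00183) and limma voom with sample weights (0.99, adjusted p = 1.26e-05) also called PYK10 higher. They called 6.91% and 27.6% of all genes higher. Among the 9 libraries with a mate inner distance under 100 bp, where Mlp37347 4 alone stands for its line and is assumed to vary like the other groups, the log2 fold change was 0.71 (adjusted p = 0.377). The 3 libraries with the longer distance all belonged to Mlp37347, so no comparison of lines could be made among them. Over 20 other settings the log2 fold change stayed between 0.71 and 1.19 and passed the threshold in 11. Those 11 include the fits without Mlp124499 1, 2, 3 or 4 (1.05, 1.09, 1.05 and 1.09), which leave both compared groups unchanged and say little on robustness. Among fits without a single Control or Mlp37347 library, the call held only without Control 4 (1.14, adjusted p = 0.0437) and without Mlp37347 4.

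**Figure D1:**
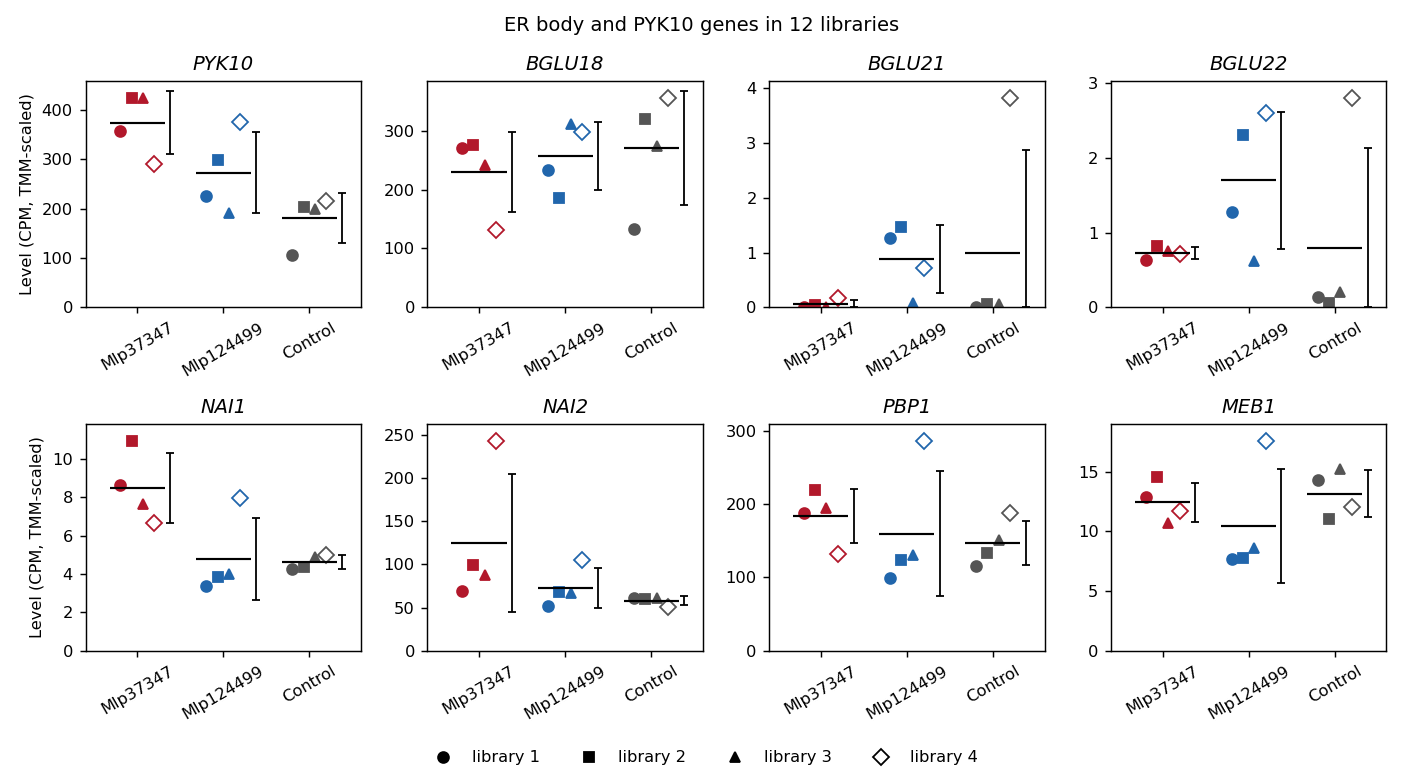
Level of each of the 8 genes in CPM (linear axes from 0) by library, for Mlp37347 (red), Mlp124499 (blue) and Control (grey). Symbols give the library number within a line, horizontal lines the mean and vertical bars the SD over 4 libraries, with bars that would pass below 0 ended there. PYK10, NAI1 and NAI2 are the genes whose Mlp37347 libraries all sit above all Control libraries.

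Of the 8 genes, 1 was called higher and 0 lower in Mlp37347 against Control, while 3.19% of all genes tested were called higher and 5.42% lower. The share called in either direction over all genes was 8.61%. At an unadjusted p under 0.05, 3 of the 8 were higher and 1 was lower, against 11.6% and 13.7% of all genes tested. DESeq2 called 3 higher and 1 lower, against 6.91% and 7.73% of all genes. Limma voom with sample weights called 5 higher and 1 lower, against 27.6% and 29.5% of all genes, so its calls stand beside a far higher background. PYK10, NAI1 and NAI2 had no overlap between the libraries of the lines, in the higher direction, which held for 8.41% of all genes tested. The median log2 fold change of the 8 genes was 0.12, against 0.01 over all genes tested.

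NAI1, the transcription factor, had no overlap between Mlp37347 and Control but missed the threshold. Its level was 8.67, 10.9, 7.68 and 6.65 CPM in Mlp37347 1 to 4, 3.36, 3.85, 4.03 and 7.98 CPM in Mlp124499 1 to 4, and 4.25, 4.36, 4.90 and 5.01 CPM in Control 1 to 4. The Mlp37347 libraries were all above Control, and the Mlp124499 libraries lay below Control except library 4, which reached the level of Mlp37347. Against Control, Mlp37347 gave a log2 fold change of 0.87 ± 0.28 (95% interval 0.28 to 1.47, adjusted p = 0.0680) and Mlp124499 gave 0.06 ± 0.28 (adjusted p = 0.965). Mlp37347 against Mlp124499 gave 0.82 ± 0.28 (95% interval 0.22 to 1.41, adjusted p = 0.142).

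Which libraries were kept decided the calls for NAI1. Without Mlp124499 4, Mlp37347 against Control gave 0.91 (adjusted p = 0.00970) and Mlp37347 against Mlp124499 gave 1.17 (adjusted p = 0.0112). Without Mlp37347 4 these were 1.01 (adjusted p = 0.0233) and 0.90 (adjusted p = 0.0492). With both of these libraries left out, they were 1.01 (adjusted p = 0.00135) and 1.27 (adjusted p = 0.000698), but 3177 genes were then called higher and 3066 lower in Mlp37347 against Control out of 19232 tested. Mlp124499 against Control turned to -0.26 without Mlp124499 4, below the threshold. DESeq2 on all 12 libraries called NAI1 higher in Mlp37347 against Control (0.90, adjusted p = 0.0219). Limma voom with sample weights called NAI1 higher in Mlp37347, against Control (0.95, adjusted p = 5.51e-05) and against Mlp124499 (1.23, adjusted p = 1.35e-05). It called 27.6% and 27.3% of all genes higher there.

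NAI2, the ER body protein, had the highest fitted fold change of the 8 genes in Mlp37347 against Control, and 1 library was far above the rest. Its level was 69.0, 99.9, 87.5 and 243 CPM in Mlp37347 1 to 4, 51.7, 67.5, 66.7 and 105 CPM in Mlp124499 1 to 4, and 60.5, 60.03, 61.1 and 50.5 CPM in Control 1 to 4. All Mlp37347 libraries were above Control, Mlp37347 4 by far the most, and the lowest Mlp124499 library lay within the Control range with the other 3 above it. The means were 125 ± 80.0, 72.7 ± 22.7 and 58.1 ± 5.05 CPM in Mlp37347, Mlp124499 and Control (SD, n = 4 each). Mlp37347 against Control gave a log2 fold change of 1.11 ± 0.35 (95% interval 0.34 to 1.87, adjusted p = 0.0712), which missed the threshold in edgeR. On all 12 libraries, DESeq2 (1.14, adjusted p = 0.0208) and limma voom with sample weights (0.47, adjusted p = 0.0136) called NAI2 higher in that comparison. Mlp124499 against Control gave 0.33 ± 0.35 (adjusted p = 0.770), and Mlp37347 against Mlp124499 gave 0.78 ± 0.35 (95% interval 0.02 to 1.54, adjusted p = 0.275). Without Mlp37347 4 alone, Mlp37347 against Control was 0.60 with an adjusted p of 0.0705, and without Mlp37347 4 and Mlp124499 4 together it was 0.60 with an adjusted p of 0.0129. Without Mlp124499 4 alone it was 1.15 (adjusted p = 0.0461), and among libraries with an inner distance under 100 bp it was 2.09 (adjusted p = 0.0175), with Mlp37347 4 alone in its line.

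MEB1, the ER body membrane protein, overlapped between Mlp37347 and Control. Its level was 12.9, 14.5, 10.7 and 11.7 CPM in Mlp37347 1 to 4, 7.71, 7.79, 8.60 and 17.6 CPM in Mlp124499 1 to 4, and 14.3, 11.0, 15.2 and 12.02 CPM in Control 1 to 4. The first 3 Mlp124499 libraries were below all other libraries and the fourth was above them. The log2 fold change was -0.07 ± 0.26 in Mlp37347 against Control (95% interval -0.64 to 0.49, adjusted p = 0.892), -0.33 ± 0.26 in Mlp124499 against Control (adjusted p = 0.649) and 0.25 ± 0.26 in Mlp37347 against Mlp124499 (adjusted p = 0.672). Without Mlp124499 4, MEB1 was called lower in Mlp124499 against Control (-0.66, adjusted p = 0.0385). Limma voom with sample weights on all libraries called it lower there too (-0.60, adjusted p = 0.00889), along with 20.1% of all genes. It called MEB1 higher in Mlp37347 against Mlp124499 (0.66, adjusted p = 0.00122), along with 27.3% of all genes.

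PBP1, the lectin partner of PYK10, was at 187, 219, 194 and 132 CPM in Mlp37347 1 to 4, 99.3, 123, 130 and 286 CPM in Mlp124499 1 to 4, and 116, 133, 151 and 187 CPM in Control 1 to 4. The lines overlapped, with Mlp37347 4 the lowest of its line and Mlp124499 4 the highest of all 12 libraries. The log2 fold changes were 0.32 ± 0.31 in Mlp37347 against Control (95% interval -0.35 to 0.99, adjusted p = 0.565), 0.12 ± 0.31 in Mlp124499 against Control (adjusted p = 0.920) and 0.20 ± 0.31 in Mlp37347 against Mlp124499 (adjusted p = 0.799). Without Mlp37347 4 and Mlp124499 4 together, Mlp37347 against Mlp124499 gave 0.76 (adjusted p = 0.0122), with 2491 of 19232 genes called higher. On all 12 libraries, limma voom with sample weights called PBP1 higher in Mlp37347, against Control (0.48, adjusted p = 0.00512) and against Mlp124499 (0.75, adjusted p = 9.08e-05). It called 27.6% and 27.3% of all genes higher there.

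BGLU18, the beta-glucosidase of inducible leaf ER bodies, was near PYK10 in level per kb of exon in Control but was not called by edgeR in any comparison. Its level was 271, 276, 242 and 131 CPM in Mlp37347 1 to 4, 234, 186, 311 and 298 CPM in Mlp124499 1 to 4, and 134, 319, 274 and 356 CPM in Control 1 to 4. The 3 lines overlapped over almost their whole range. The log2 fold changes were -0.24 ± 0.32 in Mlp37347 against Control (95% interval -0.92 to 0.45, adjusted p = 0.691), -0.07 ± 0.32 in Mlp124499 against Control (adjusted p = 0.958) and -0.16 ± 0.32 in Mlp37347 against Mlp124499 (adjusted p = 0.842). The edgeR interval spans 0, and changes inside it in either direction were not excluded. Limma voom with sample weights called BGLU18 lower in Mlp124499 against Control (-0.52, adjusted p = 0.0140).

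Per kb of annotated exon, PYK10 was above BGLU18 in all 4 Mlp37347 libraries. The ratio of the 2 levels per kb was 1.70, 1.98, 2.26 and 2.87 in Mlp37347 1 to 4, 1.24, 2.07, 0.80 and 1.63 in Mlp124499 1 to 4, and 1.02, 0.82, 0.94 and 0.78 in Control 1 to 4. The lowest Mlp37347 library was above the highest Control library, and Mlp124499 spanned both. The mean ratio was 2.20 ± 0.50, 1.43 ± 0.54 and 0.89 ± 0.11 in Mlp37347, Mlp124499 and Control (SD, n = 4 each). The ratio was chosen after the levels were seen, was not tested and shows an unequal difference of the 2 genes, not which of them differed.

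BGLU21 and BGLU22, the close relatives of PYK10, were rare transcripts, and edgeR called neither in any comparison with all libraries. BGLU21 had 0, 1, 0 and 2 counts in Mlp37347 1 to 4, 14, 18, 1 and 11 counts in Mlp124499 1 to 4, and 0, 1, 1 and 149 counts in Control 1 to 4. Of the 151 Control counts, 149 came from Control 4, so the Control mean describes 1 library. The ratio of summed counts, scaled for library size, was 0.0230 for Mlp37347 over Control (95% counting interval 0.00469 to 0.0686) and 0.0531 for Mlp37347 over Mlp124499 (0.0105 to 0.166), and these intervals cover counting error only. The fitted log2 fold changes, which depend on the prior count at such levels, were -4.39 ± 1.57 in Mlp37347 against Control (adjusted p = 0.103), -0.38 ± 1.10 in Mlp124499 against Control (adjusted p = 0.933) and -4.01 ± 1.63 in Mlp37347 against Mlp124499 (adjusted p = 0.222). Without Control 4, whose absence leaves 2 Control counts in all, Mlp37347 against Control was -0.11 (adjusted p = 0.971) and Mlp124499 against Control turned to 3.87 (adjusted p = 0.0860). Without any single library, Mlp37347 against Control ranged from -5.46 to -0.11. DESeq2 called BGLU21 lower in Mlp37347 against Control (-4.24, adjusted p = 0.0455). Limma voom with sample weights called it in all 3 comparisons, at -2.30 in Mlp37347 against Control (adjusted p = 0.0420), 2.80 in Mlp124499 against Control (adjusted p = 0.0140) and -5.10 in Mlp37347 against Mlp124499 (adjusted p = 1.42e-05).

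BGLU22 was at 0.63, 0.83, 0.75 and 0.71 CPM in Mlp37347 1 to 4, 1.27, 2.30, 0.62 and 2.59 CPM in Mlp124499 1 to 4, and 0.13, 0.07, 0.20 and 2.80 CPM in Control 1 to 4. Control 1, 2 and 3 held 1, 1 and 3 counts and were below every library of both effector lines, while Control 4 held 109 counts and was above them all. With all libraries, the log2 fold changes were -0.34 ± 0.84 in Mlp37347 against Control (adjusted p = 0.841), 0.88 ± 0.82 in Mlp124499 against Control (adjusted p = 0.715) and -1.21 ± 0.85 in Mlp37347 against Mlp124499 (adjusted p = 0.503). Without Control 4, BGLU22 was called higher in Mlp37347 (2.39, adjusted p = 0.0427) and in Mlp124499 (3.60, adjusted p = 0.00949) against Control, so Control 4 decided both calls and, in Mlp37347 against Control, the direction. Limma voom with sample weights called BGLU22 with all libraries too, at 1.76 in Mlp37347 against Control (adjusted p = 0.0284), 3.07 in Mlp124499 against Control (adjusted p = 0.00150) and -1.31 in Mlp37347 against Mlp124499 (adjusted p = 0.0111).

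Control 4 also held more root marker signal than the other Control libraries. The summed level of 14 root markers was 3.05, 2.58, 1.92 and 9.49 CPM in Mlp37347 1 to 4, 3.36, 5.08, 3.64 and 3.31 CPM in Mlp124499 1 to 4, and 1.19, 3.06, 2.75 and 7.19 CPM in Control 1 to 4. IRT1, the iron transporter of the root epidermis, was at 1.54 CPM in Control 4 and at 0 in the other 3 Control libraries. In Mlp37347 4 the sum was led by CASP2, an endodermal protein, at 3.64 CPM, and BGLU21 and BGLU22 stayed low there. Root hair regulators RHD6 and RSL4 were at 0 in all Mlp37347 libraries, RSL4, EXPA7, LRX1 and IRT1 were at 0 in all Mlp124499 libraries, and no marker was at 0 in all Control libraries. That last point rests on Control 4, the deepest library. RHD6 and RSL4 were at 0.05 CPM in it and at 0 in the other 3 Control libraries, and Control 1 had 12 of the 14 markers at 0. The part of root-expressing tissue in the values of BGLU21, BGLU22 and PYK10 was not tested.

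**Figure D2:**
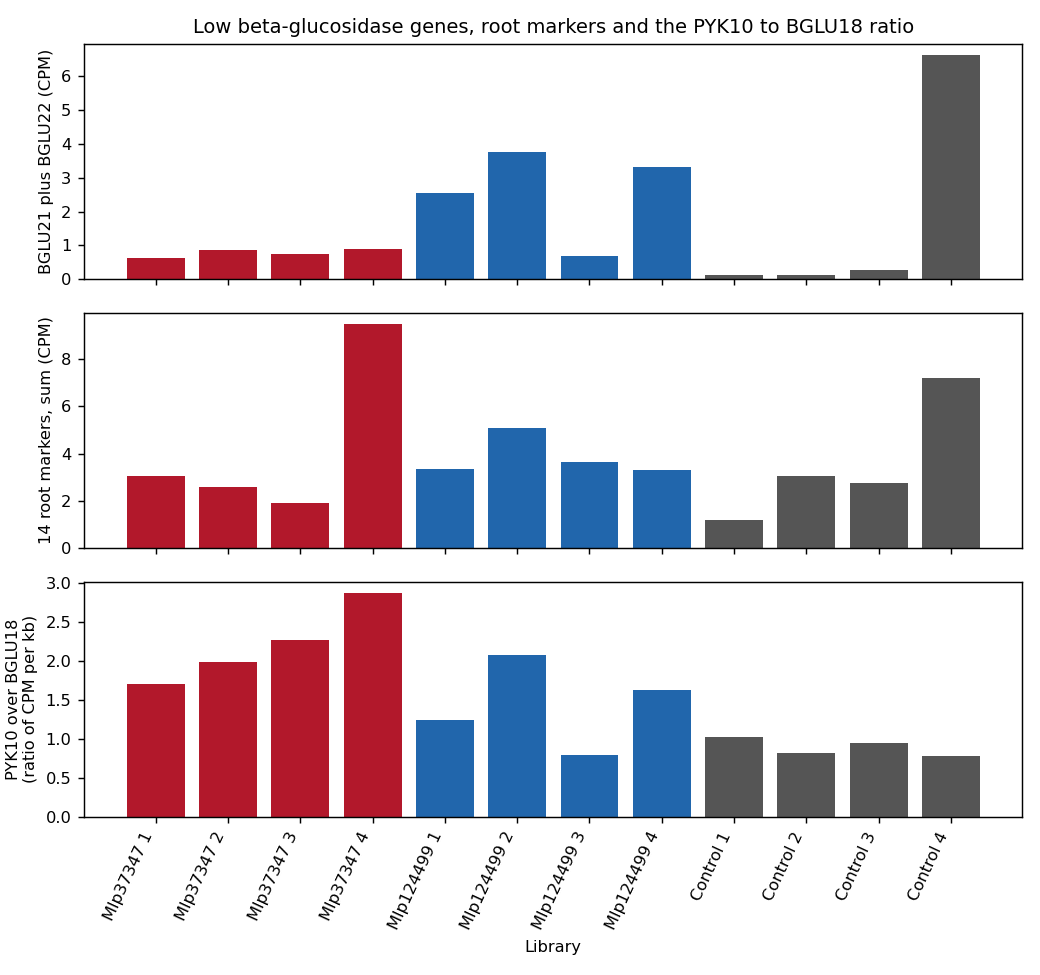
Top, summed level of BGLU21 and BGLU22 (CPM); middle, summed level of 14 root marker genes (CPM); bottom, ratio of PYK10 to BGLU18 in CPM per kb of exon, each as 1 bar per library on a linear axis from 0 (Mlp37347 red, Mlp124499 blue, Control grey). Control 4 has the highest bar at the top, Mlp37347 4 the highest in the middle, and the 4 Mlp37347 ratios, 1.70 to 2.87, sit above the 4 Control ratios, 0.78 to 1.02.

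In Mlp124499 against Control, 0 of the 8 genes were called by edgeR, against 1.56% of all genes tested called higher, 2.71% lower and 4.27% in either direction. At an unadjusted p under 0.05, 1 of the 8, PYK10, was higher and 0 were lower, against 6.79% and 9.26% of all genes. DESeq2 called 0 in either direction, against 3.33% of all genes higher and 4.51% lower, and limma voom with sample weights called 3 higher and 2 lower, against 16.1% and 20.1%. The median log2 fold change was 0.09, against -0.01 over all genes tested. No member was free of overlap between these lines, which held for 4.31% of all genes in the higher and 6.64% in the lower direction. In Mlp37347 against Mlp124499, edgeR also called 0 of the 8, against 1.10% of all genes higher, 1.59% lower and 2.69% in either direction. At an unadjusted p under 0.05, 2 were higher, NAI1 and NAI2, and 1 was lower, BGLU21, against 8.87% and 8.70% of all genes. DESeq2 called 0, against 3.53% of all genes higher and 3.65% lower, and limma voom with sample weights called 5 higher and 2 lower, against 27.3% and 27.0%. The median was 0.23, against 0.02 over all genes. All 8 overlapped between the effector lines, while 5.32% of all genes had no overlap in the higher and 5.58% in the lower direction. Both effector lines were set against the same 4 Control libraries.

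**Figure D3:**
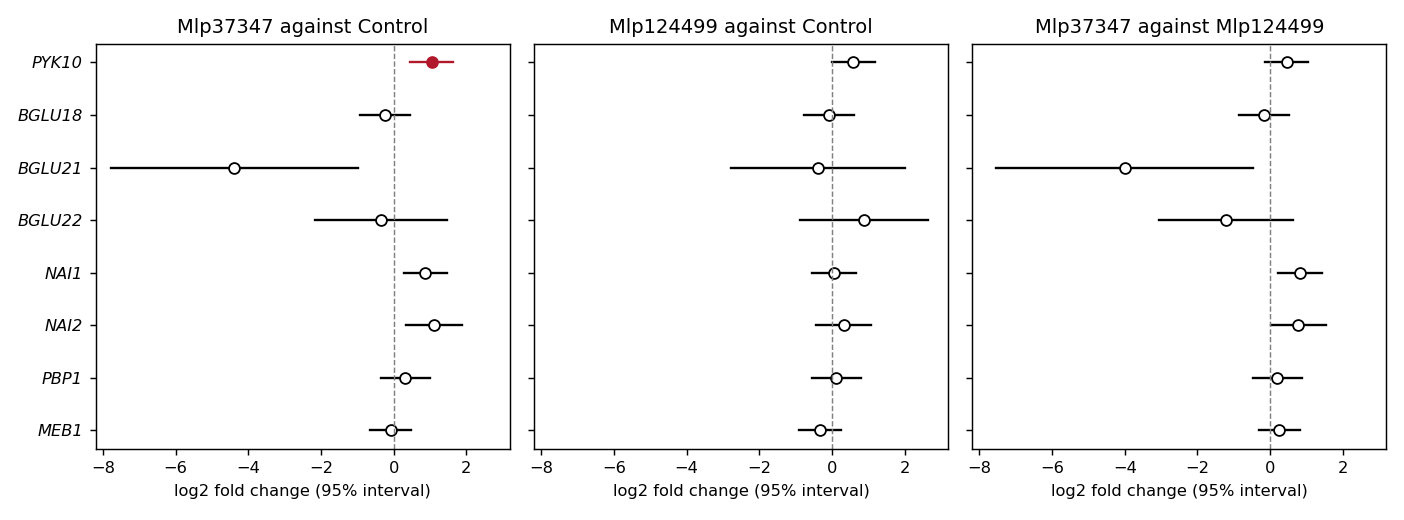
Log2 fold change (point) and 95% interval (line) of each of the 8 genes from edgeR, in Mlp37347 against Control (left), Mlp124499 against Control (middle) and Mlp37347 against Mlp124499 (right). The filled red point, PYK10 at 1.05 in the left panel, is the one past an adjusted p of 0.05; BGLU21 and BGLU22 have the widest intervals.

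Level per kb of exon split the 8 genes into the same abundant, middle and rare transcripts in the 3 lines. The order within these sets differed between lines. In Mlp37347 the means were 207 CPM per kb for PYK10, 122 for PBP1, 98.6 for BGLU18 and 48.0 for NAI2. NAI1 followed at 5.47, MEB1 at 5.26, BGLU22 at 0.351 and BGLU21 at 0.0288 CPM per kb. The means of PBP1 and BGLU18 (SD 24.3 and 28.99 CPM per kb), and of NAI1 and MEB1 (SD 1.18 and 0.693), lay closer than these SDs. Within libraries, PBP1 was above BGLU18 throughout Mlp37347. The pairs in Mlp37347 1 to 4 were 124 and 116, 146 and 118, 129 and 104, and 87.9 and 56.2 CPM per kb. NAI1 was below MEB1 in Mlp37347 4 only. These orders were not tested. In Control the means were 116 ± 41.7 CPM per kb for BGLU18, 100 ± 28.0 for PYK10 and 97.5 ± 20.3 for PBP1, whose order changed between libraries, and 22.3 ± 1.94 for NAI2. MEB1 at 5.55 ± 0.83 and NAI1 at 2.98 ± 0.24 CPM per kb were lower, and BGLU21 and BGLU22 lay under 1. In Mlp124499, PYK10 was at 151, BGLU18 at 110, PBP1 at 106 and NAI2 at 27.9 CPM per kb. The order of BGLU18 and PBP1 (SD 24.9 and 56.6) changed between the libraries of that line. Among 27444 protein-coding loci ranked by level per kb, PYK10 ranked 380 in Mlp37347, 515 in Mlp124499 and 790 in Control, and BGLU18 ranked 939, 757 and 652 in the same lines. PYK10 transcript was thus among the abundant ones of the aerial tissue, and those of BGLU21 and BGLU22 were rare.

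A list of 38 related genes covered other proteins of ER bodies and of the PYK10 complex, other helix-loop-helix genes of the NAI1 type, and the wider beta-glucosidase and myrosinase family, and 23 of them passed the filter on low counts. In Mlp37347 against Control, 2 were called higher and 0 lower, and both are jacalin-type lectins reported among the partners of PYK10. At an unadjusted p under 0.05, 4 were higher and 2 were lower, against 11.6% and 13.7% of all genes tested, and the median log2 fold change of the 23 was 0.00. The shares of all genes called by edgeR there were 3.19% higher and 5.42% lower. In Mlp124499 against Control and in Mlp37347 against Mlp124499, edgeR called 0, with 1 higher and 1 lower, and 2 higher and 3 lower, at an unadjusted p under 0.05, against 6.79% and 9.26%, and 8.87% and 8.70%, of all genes. DESeq2 called 1 higher and 1 lower in Mlp124499 against Control, against 3.33% and 4.51% of all genes, and limma voom with sample weights called 2 higher and 4 lower, against 16.1% and 20.1%. In Mlp37347 against Mlp124499, DESeq2 called 0 higher and 1 lower, against 3.53% and 3.65% of all genes, and limma voom with sample weights called 9 higher and 7 lower, against 27.3% and 27.0%. The medians were 0.04 and 0.09.

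JAL33 (AT3G16450) was at 32.8, 37.3, 36.2 and 38.2 CPM in Mlp37347 1 to 4, 19.2, 28.9, 17.7 and 61.7 CPM in Mlp124499 1 to 4, and 8.23, 14.5, 17.9 and 15.5 CPM in Control 1 to 4. The 4 Mlp37347 libraries were close together and all above Control. JAL33 rose in Mlp37347 against Control by a log2 fold change of 1.35 ± 0.36 (adjusted p = 0.0360), and Mlp124499 against Control gave 1.18 ± 0.36 (adjusted p = 0.0929). The Mlp37347 call was lost without any 1 of Control 1, 2, 3 and 4 (adjusted p = 0.0891, 0.0859, 0.0658 and 0.0605) or of Mlp37347 1, 2 and 3 (adjusted p = 0.0691, 0.0795 and 0.0750), with log2 fold changes of 1.18 to 1.49, and among libraries with an inner distance under 100 bp (1.45, adjusted p = 0.188).

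JAL34 (AT3G16460) was at 67.6, 92.7, 74.3 and 205 CPM in Mlp37347 1 to 4, 51.7, 61.7, 46.4 and 78.1 CPM in Mlp124499 1 to 4, and 27.5, 43.8, 45.2 and 48.7 CPM in Control 1 to 4. The Mlp37347 libraries were all above Control, and Mlp37347 4 was far above the other 3. JAL34 rose in Mlp37347 against Control by 1.41 ± 0.34 on the log2 scale (adjusted p = 0.0242), by 0.96 without Mlp37347 4 (adjusted p = 0.0118), and the call was lost without Control 1 (1.26, adjusted p = 0.0653), Control 2 (1.44, adjusted p = 0.0636) or Control 3 (1.46, adjusted p = 0.0633). JAL34 shares 631 bp with the antisense lectin gene JAL35 (AT3G16470), so part of its reads are uncertain in origin. JAL35 itself was at 106 ± 10.3, 124 ± 31.3 and 138 ± 21.3 CPM in Mlp37347, Mlp124499 and Control (SD, n = 4 each), with a log2 fold change of -0.37 ± 0.20 in Mlp37347 against Control (adjusted p = 0.274).

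The most abundant related genes were classical myrosinases and proteins that steer the breakdown of glucosinolates. TGG1, a myrosinase of guard cells and myrosin cells, was at 3067 ± 741, 3144 ± 575 and 3695 ± 834 CPM in Mlp37347, Mlp124499 and Control, and was not called by edgeR (-0.27 ± 0.25 in Mlp37347 against Control, adjusted p = 0.536; -0.23 ± 0.25 in Mlp124499 against Control, adjusted p = 0.766). Limma voom with sample weights called TGG1 lower in Mlp37347, against Control (-0.60, adjusted p = 0.000238) and against Mlp124499 (-0.30, adjusted p = 0.0240). TGG2, the other myrosinase of those cells, was at 1193 ± 57.8, 1152 ± 208 and 1943 ± 508 CPM, with log2 fold changes of -0.70 ± 0.23 in Mlp37347 (adjusted p = 0.0764) and -0.75 ± 0.23 in Mlp124499 (adjusted p = 0.0916) against Control. Without Control 1, which held 1190 CPM of TGG2, both passed the threshold (-0.88, adjusted p = 0.0177, and -0.93, adjusted p = 0.0216). With all libraries, DESeq2 called TGG2 lower in Mlp37347 (-0.68, adjusted p = 0.0170) and in Mlp124499 (-0.73, adjusted p = 0.0135) against Control. Limma voom with sample weights called it lower in both too (-0.81, adjusted p = 1.26e-05, and -0.74, adjusted p = 0.000119). FAMA, the regulator that guard cells and myrosin cells share, was at 19.8, 22.0, 17.0 and 33.3 CPM in Mlp37347 1 to 4, 19.7, 20.4, 30.8 and 24.6 CPM in Mlp124499 1 to 4, and 42.6, 25.4, 33.4 and 25.2 CPM in Control 1 to 4, and its part in the TGG2 values was not tested.

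BGLU26 (PEN2), a beta-glucosidase that acts on indole glucosinolates at attempted fungal entry, was at 222 ± 21.5, 213 ± 64.4 and 221 ± 51.4 CPM in Mlp37347, Mlp124499 and Control, with a log2 fold change of 0.00 ± 0.23 in Mlp37347 against Control. NSP1, a nitrile specifier protein, was at 193 ± 20.6, 166 ± 50.8 and 162 ± 17.5 CPM and was not called by edgeR (0.26 ± 0.22 in Mlp37347 against Control, adjusted p = 0.501), while limma voom with sample weights called it higher in Mlp37347, against Control (0.36, adjusted p = 0.0164) and against Mlp124499 (0.55, adjusted p = 0.000555). NSP5, of the same family, was at 72.5, 87.0, 71.7 and 511 CPM in Mlp37347 1 to 4 and at 236, 129, 156 and 144 CPM in Control 1 to 4, with a log2 fold change of 0.16 ± 0.60 (adjusted p = 0.901) that became -1.07 (adjusted p = 0.0393) without Mlp37347 4. ESM1, a modifier that favours isothiocyanate over nitrile products, was at 453, 364, 433 and 64.2 CPM in Mlp37347 1 to 4, 808, 750, 705 and 1056 CPM in Mlp124499 1 to 4, and 361, 834, 638 and 686 CPM in Control 1 to 4. All Mlp37347 libraries were below all Mlp124499 libraries for ESM1, at a log2 fold change of -1.34 ± 0.46 (adjusted p = 0.155), and without Mlp37347 4 this was -1.004 (adjusted p = 0.0252). DESeq2 (-1.34, adjusted p = 0.0451) and limma voom with sample weights (-0.90, adjusted p = 0.000195) called ESM1 lower in that comparison with all libraries. In Mlp37347 against Control, ESM1 gave -0.94 ± 0.46 (adjusted p = 0.222).

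The calls outside these genes that turned on Mlp37347 4 were ESP and BGLU33, named here after their values were seen. Without that library, ESP, the epithiospecifier protein, was called higher (1.23, adjusted p = 0.00471) and the beta-glucosidase gene BGLU33 was called lower (-0.62, adjusted p = 0.0180) in Mlp37347 against Control. With all libraries these were 0.93 (adjusted p = 0.109) and -0.58 (adjusted p = 0.0528). BGLU33 was also called lower in Mlp37347 against Mlp124499 without it (-0.56, adjusted p = 0.0381), against -0.46 with it (adjusted p = 0.174). The 15 related genes that did not pass the filter on low counts averaged at most 0.368 CPM over the 12 libraries, and they included BHLH18, BHLH19 and BHLH25, the nearest relatives of NAI1, and the root myrosinases TGG4 and TGG5.

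**Figure D4:**
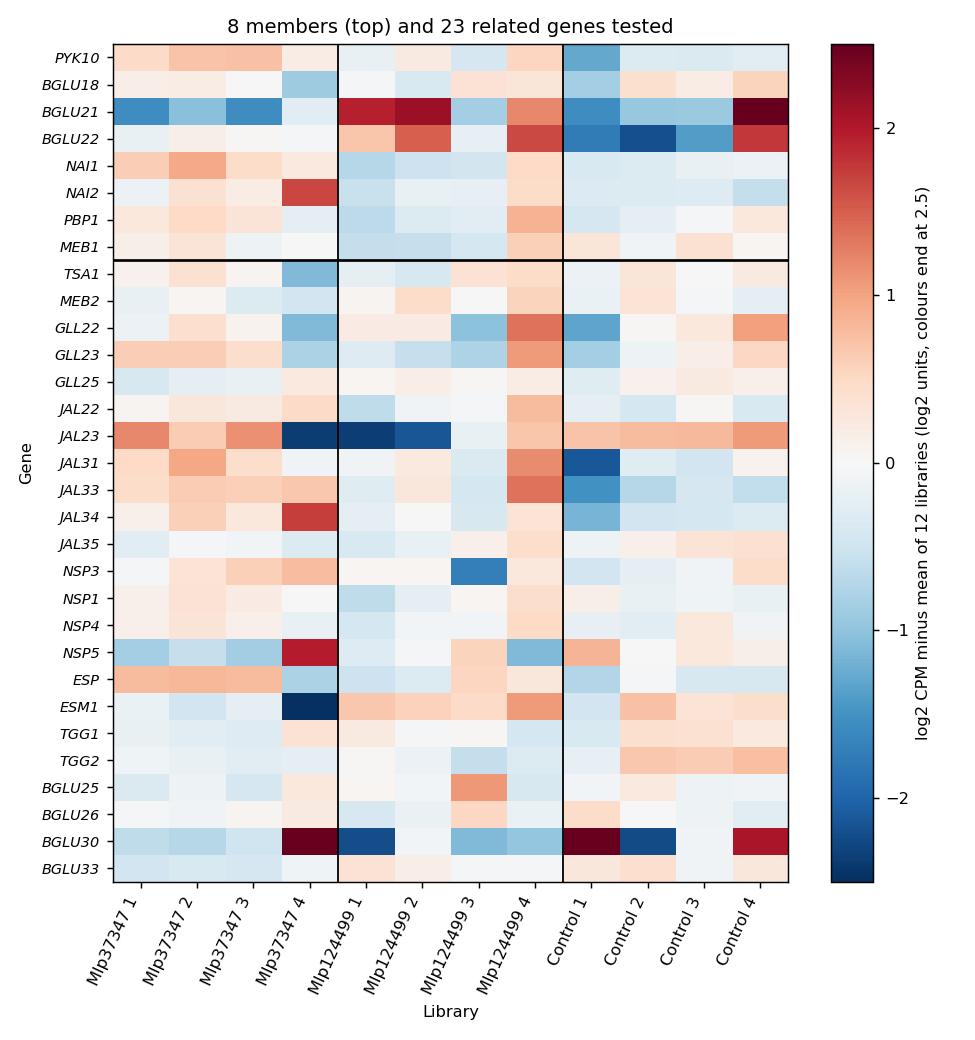
Log2 CPM minus the mean over 12 libraries (colour, in log2 units, ending at 2.5) for the 8 genes above the line and the 23 related genes tested below it, in the 12 libraries in the order Mlp37347, Mlp124499, Control. PYK10, NAI1, JAL33 and JAL34 are above their mean in every Mlp37347 library, BGLU21 and BGLU22 are far above theirs in Control 4, and Mlp37347 4 differs from the other 3 libraries of its line in NSP5, ESM1 and JAL23.

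Among the wounding and jasmonate markers, which include VSP1, VSP2 and LOX2 and which were added because leaf ER bodies respond to wounding, the summed level of 8 genes was 681 to 1030 CPM in Mlp37347, 603 to 1329 CPM in Mlp124499 and 562 to 797 CPM in Control. The lines overlapped on this sum, most of which was LOX2 and AOS, enzymes of jasmonate synthesis. Single markers differed in Mlp37347 against Control. OPR3, a later enzyme of that synthesis, was at 68.7, 83.0, 88.1 and 37.9 CPM in Mlp37347 1 to 4 and at 30.5, 34.4, 40.1 and 33.1 CPM in Control 1 to 4, and edgeR called it higher (1.01, adjusted p = 0.0260). JAZ1, a repressor of the jasmonate response, was at 25.4, 32.3, 24.6 and 57.3 CPM in Mlp37347 1 to 4 and at 63.6, 63.5, 78.8 and 52.0 CPM in Control 1 to 4, and edgeR called it lower (-0.89, adjusted p = 0.0473). JAZ1 was also below every Control library in Mlp124499 1 to 4, at 37.4, 32.2, 38.6 and 34.1 CPM (-0.86, adjusted p = 0.0796). In Mlp124499 against Control, OPR3 gave 0.04 and VSP2 gave -0.16. VSP2, a storage protein that jasmonate induces, was at 82.6, 53.4, 64.1 and 5.68 CPM in Mlp37347 1 to 4 and at 3.19, 12.6, 9.33 and 19.1 CPM in Control 1 to 4 and was not called by edgeR (2.19, adjusted p = 0.0647). In all 3 genes Mlp37347 4 was the library of its line nearest to Control, and the part of these genes in the PYK10 result was not tested. The 3 markers of myrosin and guard cells summed to 3742 to 5357 CPM in Mlp37347, 3473 to 5172 CPM in Mlp124499 and 3712 to 6483 CPM in Control, again with overlap.

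The genes most like each member over the 12 libraries were found by the root mean square difference of log2 CPM, each gene centred on its own mean, among 18301 genes of at least 1 CPM. PYK10 was closest to AT5G23820 (0.20), the aldolase gene FBA8 (0.20) and the alpha-tubulin gene TUA3 (0.20), and the nearest member was NAI1 at rank 793 (0.39). NAI1 was closest to ULT1 (0.19), ROP2 (0.20) and Cand1 (0.23), and the nearest member was PBP1 at rank 45 (0.29). NAI2 was closest to SMT1 (0.28), AT4G15610 (0.28) and AT5G24460 (0.29). PBP1 was closest to HOL1 (0.17), AT5G23200 (0.17) and AT1G14590 (0.19), and MEB1 to AT5G10750 (0.17), RABA6b (0.17) and AT3G03020 (0.18). BGLU18 was closest to G-TMT (0.20), AT4G10360 (0.21) and AT3G14410 (0.21), and its nearest member, PBP1, stood at rank 2471 (0.45). BGLU21 and BGLU22 shared neighbours: both were near the root terpene synthase genes AT3G25820 (0.982 and 0.787) and AT3G25830 (0.999 and 0.771), BGLU22 was closest to DR4 (0.64), and BGLU22 was the third gene in the list of BGLU21 (1.04). These differences describe the same 12 libraries.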

How the data were processed

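RNA sequencing of 12 libraries was analysed from the deposited counts, which are whole read pairs per locus. Per the submitters' processing notes and the labels' design text, the authors trimmed reads with Trimmomatic, aligned them to TAIR10 with TopHat2 2.0.14 and counted overlaps in R 3.2.5. A second deposited table gives read totals and the mate inner distance. Here edgeR 4.0.16 (R 4.3.3) was used with TMM scaling, filterByExpr on the 3 groups and 1 quasi-likelihood fit of all 12 libraries. Adjusted p-values are Benjamini-Hochberg values over 19090 genes, with a threshold of 0.05, from edgeR unless DESeq2 1.42.0 or voom (limma 3.58.1) is named. The SE was taken as the size of the log2 fold change over the root of F. CPM was computed here from TMM library sizes, and log2 CPM used a prior count of 2. Of the loci, 99.1% matched TAIR10.1 identifiers, which gave positions, exon lengths and sequences. The fit was run on counts simulated without outlying libraries, which cannot tell how a library such as Mlp37347 4 affects the calls. The members, lists, markers and alternatives were chosen with earlier results of these data known. Named related genes were up to 5 past the threshold per comparison and those over 100 CPM. Alternatives were other scalings, tools and filters, a replicate block, leaving out each library or both libraries numbered 4 of the effector lines, and only libraries with an inner distance under 100 bp.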

Additional observations from a re-analysis of the deposited data

Results flagged for a closer look

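A sample was taken as far from the others of its group when its gap to the nearest one, divided by the range of the 4, passed Dixon's critical value at 95%. This held in 7 of 24 sets of libraries over the 8 genes and in 3 of 27 sets over the named related genes. Chance gives about 1 in 20 for independent sets of normally distributed values. These sets are CPM values that share the same libraries across genes, so the counts are no test against that rate. Library 4 of Mlp124499 was high for NAI1 (7.976 CPM), PBP1 (285.8 CPM) and MEB1 (17.57 CPM). Control 4 was high for BGLU21 (3.826 CPM) and BGLU22 (2.799 CPM) and low for NAI2 (50.51 CPM). Control 1 was low for PYK10 (105.4 CPM) and for TGG2 (1190 CPM). Mlp37347 4 was high for NSP5 (510.6 CPM) and TGG1 (4169 CPM). The causes were not tested.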

How the results depend on the processing

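Scaling by total counts moved the median of all genes to -0.19 on the log2 scale in Mlp37347 against Control, and the split of all calls became 351 higher and 1900 lower, against 609 and 1035. In Mlp37347 against Mlp124499 the median was then -0.13, with 126 higher and 545 lower, against 210 and 303. Leaving out both libraries numbered 4 of the effector lines raised the calls over all genes, out of 19232 tested. Against Control, they were 3177 higher and 3066 lower in Mlp37347 and 1728 and 2013 in Mlp124499. In Mlp37347 against Mlp124499 they were 2491 and 2490. Without Mlp37347 4 alone, Mlp37347 had 2245 and 2158 against Control and 1407 and 1395 against Mlp124499, out of 19382. The counts below stand beside these.

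Calls among the 8 genes, 1 higher and 0 lower in Mlp37347 against Control and 0 in the other comparisons, varied as follows. In Mlp37347 against Control there were 0 higher with total-count scaling, 0 with the replicate block, 3 with DESeq2, 5 with voom and 3 without both libraries numbered 4, and 1 lower with DESeq2 and 1 with voom. Leaving out single libraries gave 0 to 3 higher and 0 to 0 lower. In Mlp124499 against Control there were 3 higher and 2 lower with voom and 1 lower without both libraries numbered 4, and 0 to 1 higher and 0 to 1 lower without single libraries. In Mlp37347 against Mlp124499 there were 5 higher and 2 lower with voom and 3 higher without both libraries numbered 4. Without single libraries there were 0 to 1 higher and 0 to 0 lower. Calls with inner distances under 100 bp are left out of these counts, since 1 library stands for Mlp37347 in that fit.

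Related genes, 2 higher and 0 lower in Mlp37347 against Control, gave there 1 higher and 2 lower with total-count scaling. DESeq2 gave 2 higher and 2 lower, voom 7 and 8, and the fit without both libraries numbered 4 gave 5 and 2. Without single libraries there were 0 to 3 higher and 0 to 2 lower. In Mlp124499 against Control, DESeq2 gave 1 and 1, voom 2 and 4, the pair left out 1 lower, and single libraries 0 to 0 higher and 0 to 1 lower. In Mlp37347 against Mlp124499, voom gave 9 and 7, DESeq2 1 lower and the pair left out 3 and 3. Leaving out single libraries gave there 0 to 0 higher and 0 to 2 lower.

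Fold changes on the log2 scale that changed sign were as follows, with the range without single libraries last. In Mlp37347 against Control, BGLU22 was 1.76 with voom and 0.62 with the replicate block (-0.68 to 2.39), MEB1 was 0.0615 with voom (-0.149 to 0.0319), and PBP1 was -0.13 under 100 bp. In Mlp124499 against Control, BGLU21 was 2.80 with voom and 1.17 with the replicate block (-0.72 to 3.87), NAI1 was -0.28 with voom and -0.26 without both libraries numbered 4 (-0.26 to 0.20), PBP1 was -0.27 in both (-0.27 to 0.29), and BGLU18 had -0.30 to 0.10. In Mlp37347 against Mlp124499, BGLU18 was 0.32 with voom and 0.10 without both libraries numbered 4 (-0.298 to 0.0219), PBP1 was -0.28 under 100 bp, and JAL33 had -0.0214 to 0.712. The causes were not tested.

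Same-numbered libraries did not deviate together (correlation -0.386 to 0.0901), and 0 of 24 library comparisons were closest to their own number. With the replicate block PYK10 in Mlp37347 against Control was 1.10 (adjusted p = 0.0579), and all calls numbered 236 higher and 566 lower. No RLE scaling or unfiltered fit changed the count of calls among the 8 genes. Low counts limit the precision of BGLU21 and BGLU22.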
